A study of Homo sapiens with 8 samples.

Results

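A set of 10 neighbouring genes of chromosome band 17q21.2 were described in 2 prostate cancer cell lines. In genome order they were KAT2A, RAB5C, GHDC, STAT5B, STAT5A, STAT3, PTRF, ATP6V0A1, NAGLU and PSMC3IP. They were chosen by symbol from the gene table as neighbours at a stretch where the PC3 level was a small share of the DU145 level. NAGLU and PSMC3IP lie beyond its edge and kept a clear level in PC3. The contrast between the lines thus guided the choice and is given as a description with no test. They made up 10 of 60554 genes listed and 10 of 20238 genes tested.

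DU145 is a cell line from a brain metastasis of prostate cancer and PC3 one from a bone metastasis, and both grow without androgen. Bulk RNA-seq was available for 8 libraries, 2 each of PC3 resistant, PC3 sensitive, DU145 resistant and DU145 sensitive cells. Resistant cells were kept in 10 nM docetaxel, a taxane that stabilises microtubules, dissolved in DMSO, and sensitive cells in 0.1% DMSO without the drug. Whether the drug was withdrawn before RNA of these libraries was taken is not stated. All cells grew in RPMI medium with fetal bovine serum. Each resistant line is a derivative of its parent selected with the drug. Nothing in the labels says that both libraries of a group are separate cultures, and p-values then reflect the spread between libraries, which may be technical.

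STAT proteins wait in the cytoplasm until a cytokine receptor and its Janus kinase (JAK) phosphorylate them. They then pair, enter the nucleus and bind DNA, and one class of their target genes, the SOCS family, shuts the receptor down again. STAT3 serves the IL6 family of cytokines and is often active in prostate cancer, while STAT5A and STAT5B serve prolactin, growth hormone and several interleukins. The other genes of the band do unrelated work in chromatin, endosomes, caveolae, lysosomes and recombination.

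The genes lay on chromosome 17 of the hg38 genome within 465 kb, from base 42113111, where KAT2A ends on the minus strand, to base 42577831, where PSMC3IP starts. STAT5B (42199176 to 42288633, minus strand) and STAT5A (42287547 to 42311943, plus strand) overlap at their starts, and it is not stated whether counting used strand, so reads from the overlap could have gone to either. Their coding sequences also share long identical stretches. The longest run was 429 bases, positions 564 to 992 of both open reading frames. Its first 120 bases are shown because reads inside it could not be assigned to one gene by sequence.

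STAT5A and STAT5B, shared run: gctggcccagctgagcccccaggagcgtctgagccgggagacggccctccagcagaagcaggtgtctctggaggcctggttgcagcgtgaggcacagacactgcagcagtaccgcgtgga

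Of the distinct 50-base stretches pooled over the protein coding transcripts of each gene, 507 were shared. That was 10.6% of those of STAT5A and 7.80% of those of STAT5B. None was shared with STAT3. The split of counts between STAT5A and STAT5B is therefore uncertain, and STAT3 counts are not touched by it.

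Promoter sequences (250 bases before to 50 after a start) came from RefSeq on GRCh38.p14, where 8 of 10 members had an entry and PTRF and NAGLU did not. Those of KAT2A, STAT3 and ATP6V0A1 are shown because they are the 2 ends and the centre of the stretch with almost no reads in PC3. Capitals mark a CCAAT box (CCAAT or ATTGG) and a GC box (GGGCGG or CCGCCC), searched on both strands.

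KAT2A, chr17:42121318-42121617, minus strand: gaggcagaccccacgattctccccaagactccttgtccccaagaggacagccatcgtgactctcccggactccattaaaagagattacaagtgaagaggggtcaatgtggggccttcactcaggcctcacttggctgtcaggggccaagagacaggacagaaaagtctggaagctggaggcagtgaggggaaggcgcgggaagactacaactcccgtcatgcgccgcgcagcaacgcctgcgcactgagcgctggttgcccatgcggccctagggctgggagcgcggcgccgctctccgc
STAT3, chr17:42388393-42388692, minus strand: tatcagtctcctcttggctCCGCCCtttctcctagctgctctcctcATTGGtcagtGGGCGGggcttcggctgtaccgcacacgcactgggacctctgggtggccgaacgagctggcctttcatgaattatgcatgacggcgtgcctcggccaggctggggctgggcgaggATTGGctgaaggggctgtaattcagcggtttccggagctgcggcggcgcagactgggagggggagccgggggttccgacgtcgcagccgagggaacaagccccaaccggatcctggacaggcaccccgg
ATP6V0A1, chr17:42458628-42458927, plus strand: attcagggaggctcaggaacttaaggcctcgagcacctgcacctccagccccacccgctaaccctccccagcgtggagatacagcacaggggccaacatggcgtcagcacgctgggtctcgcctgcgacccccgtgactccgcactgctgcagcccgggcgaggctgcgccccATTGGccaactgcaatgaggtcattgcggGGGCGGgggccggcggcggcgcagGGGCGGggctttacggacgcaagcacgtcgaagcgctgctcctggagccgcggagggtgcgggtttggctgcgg

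The STAT3 promoter held 2 CCAAT boxes and 2 GC boxes, that of ATP6V0A1 held 1 and 2, and that of KAT2A had no match to either. CCAAT occurred in 34.6% and the GC box in 45.0% of 35116 promoters of the same length. The STAT motif TTCNNNGAA, found in 7.66% of them, had no match in any promoter of the members. These matches describe letters in a window and not bound sites.

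Of the 10 genes, 7 were nearly absent from PC3 cells. Levels are counts scaled to the library total (CPM), and nearly absent means below 2% of the DU145 mean for a gene with at least 5 CPM in DU145. They were KAT2A, RAB5C, STAT5B, STAT5A, STAT3, PTRF and ATP6V0A1, at 0.235% to 0.529% of the DU145 level. Of 11290 genes with that DU145 level, 182 were below 2%, or 1.61%. The contrast chose the members, so nothing is read from that share. In bulk libraries, fewer cells with a transcript and less of it per cell cannot be told apart.

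**Figure D1:**
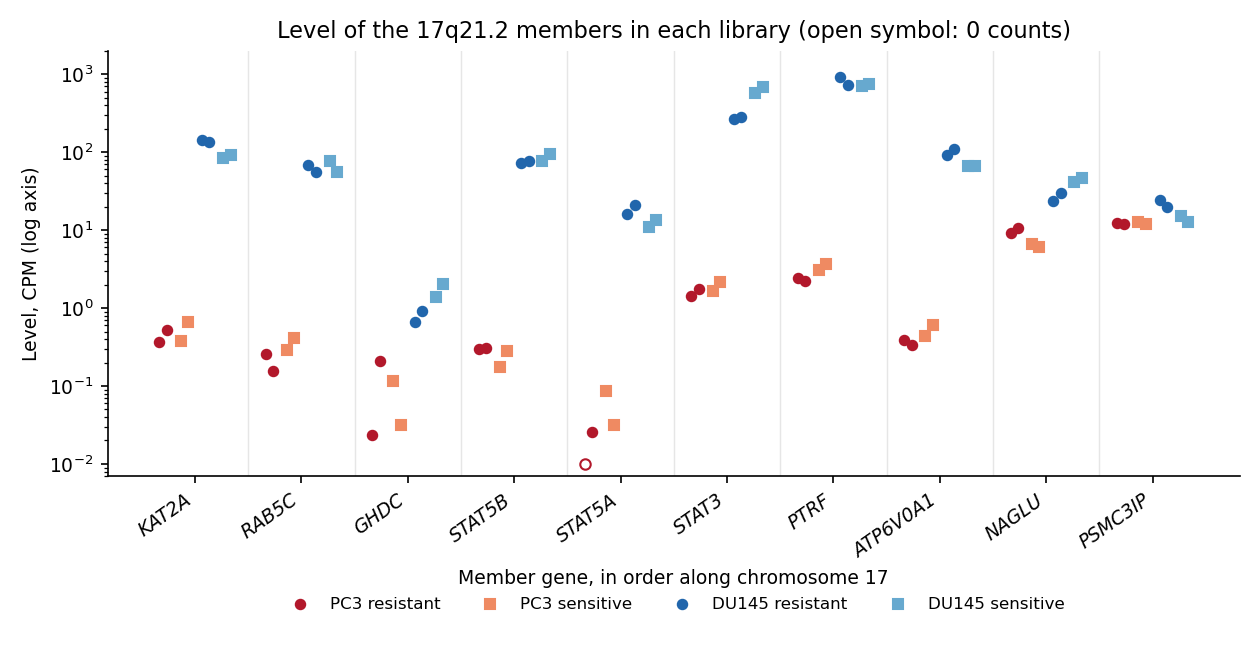
Level of each of the 10 members in each of the 8 libraries, in CPM on a log axis, with genes in order along chromosome 17 and 1 symbol per library. For 7 genes the 4 PC3 libraries sat at 3.66 CPM or below while the 4 DU145 libraries sat at 10.9 CPM or above, and PSMC3IP was the member whose lines lay closest together.

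STAT3 had 1.44 and 1.76 CPM in PC3 resistant cells and 1.68 and 2.15 CPM in PC3 sensitive cells, against 270 and 285 CPM in DU145 resistant cells and 574 and 686 CPM in DU145 sensitive cells. The PC3 mean was 0.387% of the DU145 mean. In reads, the 4 PC3 libraries held 62, 68, 58 and 68 counts, so the residue was small but present in every library, with a pooled share of 0.382% and a Poisson 95% interval of 0.336% to 0.431% that covers counting error only. Because the gene differed between DU145 groups, its share was 0.578% with resistant libraries alone and 0.303% with sensitive libraries alone.

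STAT5B had 0.302 and 0.311 CPM in PC3 resistant and 0.174 and 0.284 CPM in PC3 sensitive cells, against 73.5 and 77.1 CPM in DU145 resistant and 75.9 and 94.3 CPM in DU145 sensitive cells. STAT5A had 0 and 0.0259 CPM in PC3 resistant and 0.0869 and 0.0316 CPM in PC3 sensitive cells, against 16.0 and 20.8 CPM in DU145 resistant and 10.9 and 13.6 CPM in DU145 sensitive cells. The STAT5A values in PC3 stand for 0, 1, 3 and 1 reads, and the count of 0 allows a level up to 0.454% of the DU145 mean. STAT5A was thus at the counting floor in PC3, STAT5B held 6 to 13 reads per library, and STAT3 stood above the floor in every library. The pooled interval of STAT5A, 0.0716% to 0.515%, covers the shares of the other two, and its mean share of 0.235% became 0.125% without PC3 sensitive replicate 1.

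PTRF, also called CAVIN1, is the coat protein that caveolae need to form, and it was the most abundant member in DU145. It had 2.44 and 2.23 CPM in PC3 resistant and 3.10 and 3.66 CPM in PC3 sensitive cells, against 915 and 718 CPM in DU145 resistant and 700 and 758 CPM in DU145 sensitive cells. Those were 105, 86, 107 and 116 reads in the 4 PC3 libraries, the largest residue of any member below 2%. Its share of 0.370% was nevertheless close to that of STAT3.

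KAT2A is the acetyltransferase subunit of the SAGA and ATAC coactivator complexes. It had 0.372 and 0.519 CPM in PC3 resistant and 0.376 and 0.663 CPM in PC3 sensitive cells, against 141 and 136 CPM in DU145 resistant and 85.1 and 91.9 CPM in DU145 sensitive cells. RAB5C, a small GTPase of early endosomes, had 0.256 and 0.156 CPM in PC3 resistant and 0.290 and 0.410 CPM in PC3 sensitive cells, against 67.8 and 55.4 CPM in DU145 resistant and 77.8 and 56.2 CPM in DU145 sensitive cells. The lines stood apart by over 100 times in both genes, and the PC3 groups overlapped in KAT2A and not in RAB5C.

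ATP6V0A1 encodes a membrane subunit of the vacuolar proton pump that acidifies lysosomes. It had 0.395 and 0.337 CPM in PC3 resistant and 0.434 and 0.600 CPM in PC3 sensitive cells, against 92.2 and 110 CPM in DU145 resistant and 66.2 and 65.5 CPM in DU145 sensitive cells. Its share was 0.529%, the highest of the 7 over both states, with 0.362% in resistant libraries alone, where STAT3 and STAT5B were higher, and 0.785% in sensitive libraries alone. The next members above it were GHDC at 7.52% and NAGLU at 22.9%.

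GHDC was little used in either line. It had 0.0232 and 0.207 CPM in PC3 resistant and 0.116 and 0.0316 CPM in PC3 sensitive cells, against 0.672 and 0.922 CPM in DU145 resistant and 1.39 and 2.04 CPM in DU145 sensitive cells. With a DU145 mean of 1.26 CPM it was under the 5 CPM limit and was not counted among the 7, and its pooled share had an interval of 4.12% to 12.6%. Its mean share of 7.52% was 14.5% in resistant and 4.29% in sensitive libraries alone, and 4.53% without PC3 resistant replicate 2.

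The last 2 members kept a clear level in PC3. NAGLU, the lysosomal enzyme that removes N-acetylglucosamine from heparan sulfate, had 9.18 and 10.5 CPM in PC3 resistant and 6.69 and 6.03 CPM in PC3 sensitive cells, against 23.4 and 30.02 CPM in DU145 resistant and 41.8 and 46.4 CPM in DU145 sensitive cells. PSMC3IP, which works with MND1 in strand exchange during recombination, had 12.3 and 12.1 CPM in PC3 resistant and 12.9 and 12.0 CPM in PC3 sensitive cells, against 24.3 and 19.62 CPM in DU145 resistant and 15.1 and 12.7 CPM in DU145 sensitive cells. NAGLU stood at 22.9% of DU145 (36.8% in resistant and 14.4% in sensitive libraries alone) and PSMC3IP at 68.7% (55.7% in resistant and 89.4% in sensitive libraries alone), and the PC3 and DU145 libraries of PSMC3IP overlapped.

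Over both states, the 7 shares covered a narrower range than the levels they were taken from. The choice of genes below 2% capped these shares, while the levels had only a floor of 5 CPM, so nothing is read from this. From the lowest share to the highest was a 2.25-fold range, while the DU145 levels of the same genes, 15.3 to 773 CPM, covered a 50.4-fold range. The range was wider within a state, as the shares ran from 0.0704% (STAT5A, 1 read) to 0.578% (STAT3) in resistant libraries alone and from 0.269% to 0.785% in sensitive libraries alone. Summed over the 7 genes, PC3 libraries held 5.20 and 5.34 CPM in resistant cells and 6.14 and 7.80 CPM in sensitive cells, which was 224, 206, 212 and 247 reads. Among 2624 genes off chromosome Y with at least 100 CPM in DU145, 15 were below 2% in PC3, and the 12 that were not members had shares of 0.358% to 1.96%. Below 0.5% there were 6 of the 2624, namely PTRF, STAT3, KAT2A, UCHL1, LMO3 and CTNNA1, the last 3 chosen for naming after their values were seen.

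Per kilobase of annotated exon, the DU145 mean levels fell in the order PTRF (216 CPM per kb), STAT3 (40.5), KAT2A (30.1), RAB5C (23.3), NAGLU (12.1), PSMC3IP (6.95), STAT5B (6.62), ATP6V0A1 (6.45), STAT5A (2.40) and GHDC (0.320). PTRF stood clear of the next gene in every DU145 library. STAT3, KAT2A and RAB5C overlapped one another over the 4 libraries, as did PSMC3IP, STAT5B and ATP6V0A1. NAGLU, with 7.97 to 15.8 CPM per kb, overlapped PSMC3IP and ATP6V0A1, and STAT5A and GHDC were below all others without overlap.

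From the KAT2A end to the ATP6V0A1 end, base 42113111 to 42522582 or 409 kb, all 7 genes with at least 5 CPM in DU145 were below 2% in PC3. The block held 21 annotated genes of the files in all. Its 13 that were not members summed to 19 reads over the 4 PC3 libraries against 266 over the 4 DU145 libraries, with at most 5 reads in any PC3 library, and 3 of them lie inside ATP6V0A1. Of those 3, named after their values were seen, MIR548AT had no reads. RP11-194N12.2 had 6 reads over the 4 PC3 libraries, against 7 over 2 DU145 resistant and 6 over 2 DU145 sensitive libraries. Its PC3 level was 42.6% of the DU145 mean. RP11-400F19.18 had 9 reads against 64 and 69 in the same order, at 5.92% of the DU145 mean.

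**Figure D2:**
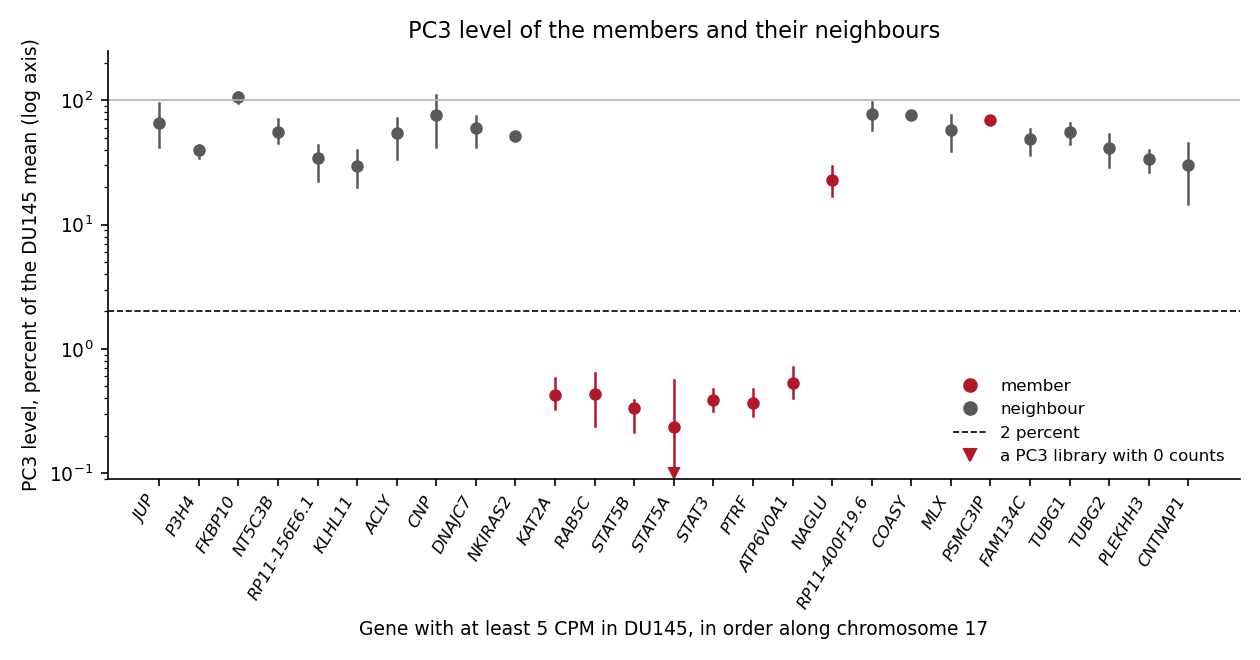
PC3 level as a percent of the DU145 mean (log axis) for the 27 genes with at least 5 CPM in DU145 from 10 before the block to 10 after it, in genome order. Points are means of 4 PC3 libraries and lines span those libraries, and 7 neighbouring members lie between 0.235% and 0.529% while the 20 genes beside them lie between 22.9% and 107%.

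On the side of KAT2A the nearest gene with at least 5 CPM was NKIRAS2, an inhibitor of NF-kappa-B signalling, at 51.5% of the DU145 level and 87.5 kb away. ZNF385C lay between them, 14.6 kb from KAT2A, and had 11.4% with only 3.14 CPM in DU145 (27.2% in resistant and 3.84% in sensitive libraries alone). DHX58, next to KAT2A, had 2 reads over the 4 PC3 libraries, against 15 over 2 DU145 resistant and 25 over 2 DU145 sensitive libraries. CTD-2132N18.2, inside ZNF385C and named after its values were seen, had 50.4% with only 0.715 CPM in DU145. Its share was 110% in resistant and 20.2% in sensitive libraries alone. The edge on this side is therefore known only to within the gap. On the other side NAGLU followed ATP6V0A1 after 13.7 kb at 22.9%. Beyond it RP11-400F19.6 stood at 77.4%, COASY, an enzyme of coenzyme A synthesis, at 76.4%, MLX, a transcription factor, at 57.2%, and PSMC3IP at 68.7%. MLX and PSMC3IP overlap on opposite strands, so reads at their shared end cannot be assigned with certainty.

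The 20 flanking genes had a median of 55.0% and NAGLU was the lowest of them. Over all 11290 genes the median was 97.3%. A run of at least 3 neighbouring genes below 2% occurred 1 time outside chromosome Y, and it was this one. With a DU145 minimum of 1 CPM there were 7 such runs, and with a limit of 5% there were 5, so the count of runs depends on both limits. At the 1 CPM minimum GHDC is included at 7.52%, and it splits the run described here between RAB5C and STAT5B.

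The block sat inside a longer stretch of chromosome 17 that was itself below the DU145 level. The median share was 56.6% for the 50 genes before the block and 55.9% for the 27 genes after it as far as DHX8, a helicase of the spliceosome, and 143% for the 30 genes beyond DHX8. DHX8 itself stood at 57.4%. The step was placed at DHX8 after the values were seen. It held in both states, with 50.4%, 48.7% and 170% in resistant cells and 61.2%, 58.2% and 128% in sensitive cells for the 3 stretches in that order. Over chromosome 17 without the block the median was 95.1%, within the range of 60.6% to 190% over 23 chromosomes.

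**Figure D3:**
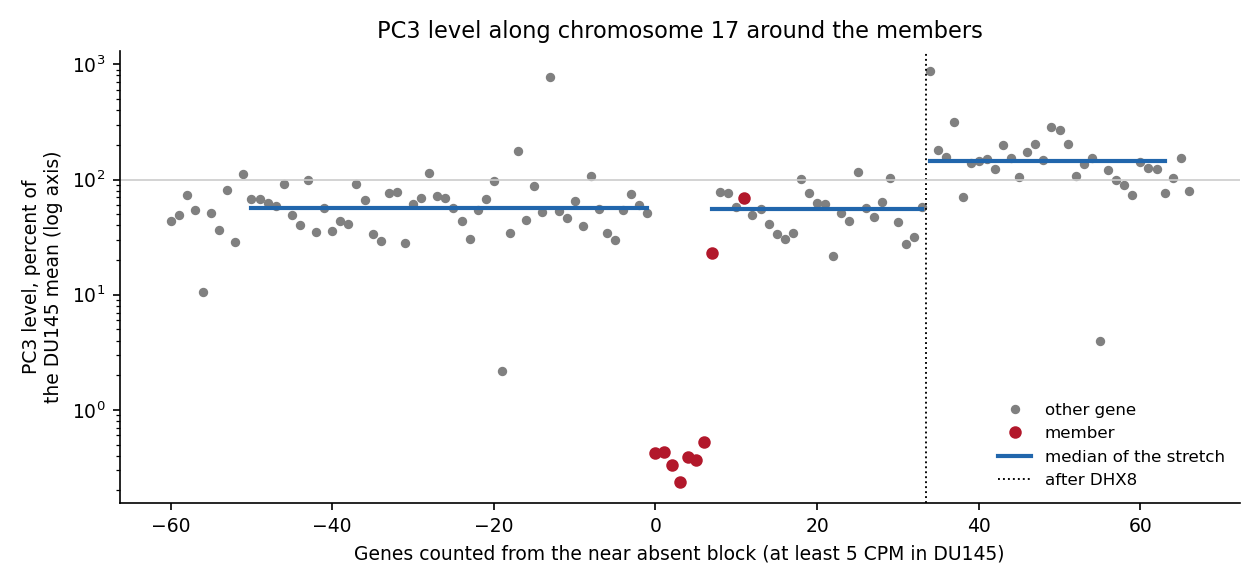
PC3 level as a percent of the DU145 mean (log axis) for genes of chromosome 17 with at least 5 CPM in DU145, counted in gene order from the first gene of the block. Blue lines are medians of 3 stretches (56.6%, 55.9% and 143%), red points are members, and the dotted line marks the step after DHX8.

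Epithelial marker genes summed to 287 to 558 CPM in PC3 and 210 to 4093 CPM in DU145 libraries. The prostate marker KLK3 and the T cell marker CD3E had 0 counts in all 8 libraries. Leukocyte and fibroblast markers summed to at most 5.16 CPM. Endothelial markers summed to 6.43 to 25.4 CPM in PC3, carried there by PECAM1, and to 0.346 to 1.36 CPM in DU145. The part of all these markers in the result was not tested. Library totals were 31685148 to 43045127 counts.

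Within DU145, all 4 epithelial markers were lower in the resistant libraries without overlap. KRT8 had 27.2 and 30.8 CPM in DU145 resistant cells against 2150 and 1271 CPM in DU145 sensitive cells, KRT18 had 319 and 161 CPM against 1897 and 1157 CPM, and CDH1 had 0.351 and 0.490 CPM against 24.0 and 21.3 CPM. EPCAM differed least, with 18.6 and 17.5 CPM against 21.6 and 20.2 CPM. The part of this in the values that follow was not tested.

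Within DU145 the members did not move as one. Resistant cells had less STAT3 and NAGLU and more KAT2A, ATP6V0A1 and PSMC3IP than sensitive cells, and RAB5C, GHDC, STAT5B, STAT5A and PTRF did not pass the test. That was 3 higher and 2 lower of 10, where 27.8% of all tested genes were called (12.4% higher and 15.4% lower). The resistant and sensitive libraries did not overlap in 7 of the 10, against 61.3% of tested genes. The median log2 fold change was 0.04 over the members and 0 over all tested genes. Tests were edgeR quasi-likelihood tests on all 8 libraries with Benjamini-Hochberg adjustment over 20238 genes.

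STAT3 was 0.440 times as high in DU145 resistant as in DU145 sensitive cells, 277 ± 10.2 against 630 ± 79.1 CPM (SD, n = 2 each). The log2 fold change was -1.18 ± 0.15 (SE) with an edgeR adjusted p of 0.000263. Both resistant libraries lay below both sensitive ones by a wide gap, and the call held with each library left out, at log2 fold changes of -1.26 to -1.07. NAGLU fell as well, to 26.7 ± 4.67 CPM in resistant cells against 44.1 ± 3.25 CPM in sensitive cells (SD, n = 2 each), a log2 fold change of -0.72 ± 0.17 (edgeR adjusted p = 0.00991).

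KAT2A rose to 139 ± 3.51 CPM in resistant cells against 88.5 ± 4.83 CPM in sensitive cells (SD, n = 2 each), a log2 fold change of 0.66 ± 0.16 (edgeR adjusted p = 0.0109). ATP6V0A1 rose by 0.62 ± 0.14 on the log2 scale (edgeR adjusted p = 0.00793) and PSMC3IP by 0.67 ± 0.20 (edgeR adjusted p = 0.0288). These 3 genes and STAT3 thus changed in opposite directions, and KAT2A and ATP6V0A1 are the 2 ends of the block that holds STAT3.

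These calls were less firm than that of STAT3. That of KAT2A was lost without DU145 sensitive replicate 1 (edgeR adjusted p = 0.0552) or DU145 resistant replicate 1 (0.0689), that of ATP6V0A1 without DU145 sensitive replicate 2 (0.0567), and that of NAGLU without DU145 sensitive replicate 2 (0.0572) or DU145 resistant replicate 1 (0.0711). That of PSMC3IP was lost without DU145 sensitive replicate 2 (0.186) or DU145 resistant replicate 1 (0.233).

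**Figure D4:**
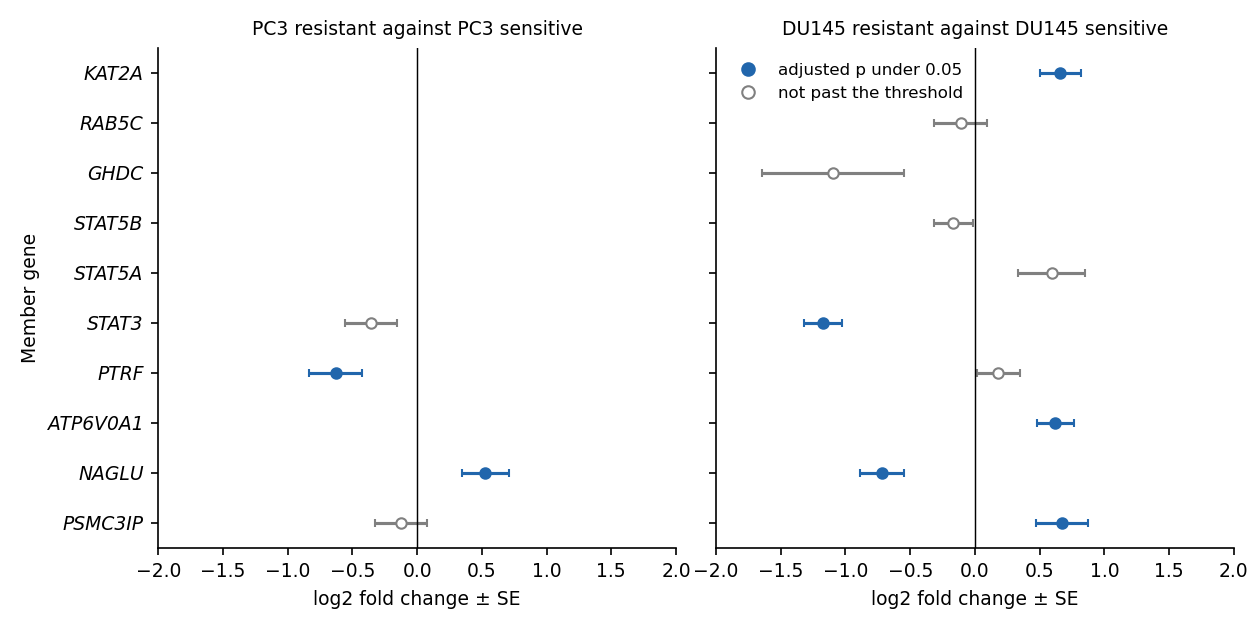
Log2 fold change of resistant against sensitive cells with its standard error for the members, at left in PC3 (only the 4 with at least 50 reads in every PC3 library) and at right in DU145. Filled points passed the test, and in DU145 STAT3 lies at -1.18 and NAGLU at -0.72 while KAT2A, ATP6V0A1 and PSMC3IP lie between 0.62 and 0.67.

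The 5 members that did not pass had log2 fold changes of -0.11 ± 0.21 (RAB5C), -0.17 ± 0.15 (STAT5B), 0.18 ± 0.16 (PTRF), 0.59 ± 0.26 (STAT5A) and -1.10 ± 0.55 (GHDC). STAT5A and GHDC had libraries that did not overlap between the groups. Their reads were few or their spread wide, with edgeR adjusted p of 0.111 for STAT5A and 0.165 for GHDC.

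Within PC3 most members had too few reads to compare. All 10 passed the filter on low counts over the 8 libraries, but GHDC and STAT5A did not pass it in a fit of the PC3 libraries alone. Only PTRF and NAGLU passed the test, 1 lower and 1 higher, where 35.6% of all tested genes were called, 18.6% higher and 17% lower. PTRF was lower in resistant cells by a log2 fold change of -0.63 ± 0.20 (edgeR adjusted p = 0.0337), on 191 reads in resistant and 223 in sensitive cells. NAGLU was higher by 0.53 ± 0.18 (edgeR adjusted p = 0.0404), and STAT3 and PSMC3IP had -0.35 ± 0.20 and -0.12 ± 0.20 and did not pass.

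Both PC3 calls were marginal. Leaving out any 1 PC3 library ended them, with edgeR adjusted p of 0.0715 (sensitive replicate 1), 0.186 (sensitive replicate 2), 0.0867 (resistant replicate 1) and 0.146 (resistant replicate 2) for PTRF, and 0.105, 0.244, 0.0523 and 0.190 in the same order for NAGLU. Leaving out DU145 sensitive replicate 1 or 2 gave 0.0508 and 0.0504 for PTRF and 0.0514 and 0.0513 for NAGLU. The sign of both stayed.

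NAGLU was therefore lower in DU145 resistant cells and higher in PC3 resistant cells than in the sensitive cells of each line. The PC3 difference minus the DU145 difference, a quantity past the threshold for 34.3% of tested genes, was 1.25 ± 0.25 on the log2 scale (edgeR adjusted p = 0.00305), and its adjusted p stayed between 0.00376 and 0.0207 with each library left out. The same quantity for PSMC3IP was -0.80 ± 0.28 (edgeR adjusted p = 0.0513).

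Changes among the neighbours outside the block were mostly falls in resistant cells. Of the 20 flanking genes, 2 were higher and 7 lower in DU145 resistant cells (median log2 fold change -0.16), and 2 were higher and 10 lower in PC3 resistant cells (median -0.60). Of all tested genes, DU145 resistant cells had 12.4% higher and 15.4% lower, and PC3 resistant cells 18.6% higher and 17% lower. The counts include NAGLU and PSMC3IP. DNAJC7, a cochaperone on the KAT2A side, was higher in DU145 resistant cells by 0.76 ± 0.14 and lower in PC3 resistant cells by -0.82 ± 0.14 on the log2 scale. COASY was lower in DU145 resistant cells (log2 fold change -0.71 ± 0.14), and RP11-400F19.6 was lower in PC3 resistant cells (-0.83 ± 0.19).

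The gene lists that follow are read against the same shares of all tested genes, 12.4% higher and 15.4% lower in DU145 resistant cells and 18.6% higher and 17% lower in PC3 resistant cells. A count near those shares is no result about a list. All medians stand beside 0 in DU145 and 0.01 in PC3 over all tested genes.

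The pathway around the STAT genes was present in PC3. The JAK kinases and the other STATs had a median PC3 share of 87.8% over 8 genes, with STAT2 at 86.8% and STAT6 at 63.2%, and STAT4, which was low in DU145 at 7.34 CPM, at 11.2%. None of the 8 was below 2%. In DU145 resistant cells 1 was higher, 1 lower and 6 did not pass, and in PC3 resistant cells 2 were lower and 6 did not pass. JAK1 was higher in DU145 resistant cells by 0.51 ± 0.13, a call lost without DU145 sensitive replicate 1 (edgeR adjusted p = 0.0927) or DU145 resistant replicate 1 (0.0759). JAK3 was lower there by a log2 fold change of -2.22 ± 0.35, and STAT6, which serves IL4 and IL13, was lower in PC3 resistant cells by -1.34 ± 0.20.

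Among ligands and receptors of the pathway, 8 of 22 tested were higher and 1 lower in DU145 resistant cells, and 5 were higher and 4 lower in PC3 resistant cells. The median log2 fold change was 0.23 in DU145 and -0.02 in PC3. The receptor subunit IL31RA had 30.7 and 37.7 CPM in PC3 resistant against 4.29 and 8.43 CPM in PC3 sensitive cells, and 23.4 and 40.4 CPM in DU145 resistant against 1.34 and 1.24 CPM in DU145 sensitive cells. Its log2 fold changes were 2.34 ± 0.32 in PC3 and 4.62 ± 0.36 in DU145, and the resistant libraries stood above the sensitive ones in both lines. LIFR, the receptor subunit for LIF, was higher by 1.32 ± 0.19 in PC3 and 0.84 ± 0.18 in DU145. IL11 was higher in DU145 (2.65 ± 0.37) and the cytokine CLCF1 lower in PC3 (-2.11 ± 0.28).

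Among inhibitors, 1 of 16 was higher and 4 lower in DU145 resistant cells, and 2 were higher and 5 lower in PC3 resistant cells, with median log2 fold changes of -0.06 and -0.31 for DU145 and PC3. SOCS3, which binds gp130 and JAKs and is itself induced by STAT3, had 19.8 and 11.6 CPM in DU145 resistant cells against 59.4 and 45.2 CPM in DU145 sensitive cells, a log2 fold change of -1.71 ± 0.27. CISH, an inhibitor induced by STAT5, was lower by -3.22 ± 0.39 and the phosphatase PTPN6 by -3.00 ± 0.19, while SOCS5 was higher by 0.82 ± 0.13. In PC3 resistant cells SOCS6 was lower by -1.59 ± 0.15. The receptors and the inhibitors thus held calls in both directions.

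Of 21 tested genes known as targets of STAT3 or STAT5, 3 were higher and 9 lower in DU145 resistant cells (median log2 fold change -0.48), and 4 were higher and 7 lower in PC3 resistant cells (median -0.16). The adhesion molecule ICAM1 was lower in both, by -2.65 ± 0.14 in DU145 and -1.39 ± 0.14 in PC3. In DU145 the transcription factor CEBPD was lower (-1.23 ± 0.25) and FOSL1 higher (1.67 ± 0.27). In PC3, where STAT3 was near absent in both states, JUNB (-1.48 ± 0.20) and IRF1 (-1.17 ± 0.16) were lower and MYC was higher (1.11 ± 0.18). Over the list the median PC3 share of the DU145 level was 122%, and CEBPD stood at 5.03%.

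Some partners of PTRF in caveolae were low in PC3 in at least 1 state. Over the 9 listed genes the median PC3 share was 43.1%, with CAV1 at 82.1% and CAV2 at 28.3%. EHD2, which sits at the neck of caveolae, had 1.56%. SDPR and PRKCDBP, cavins like PTRF, had 2.57% and 8.32% over both states, but these depend on the state. SDPR was at 312% in resistant and 1.29% in sensitive libraries alone, and PRKCDBP at 28.8% in resistant and 0.524% in sensitive libraries alone. The 312% was taken over a DU145 resistant level of only 0.234 and 0.0576 CPM, so it does not show a high SDPR level in PC3. In DU145, where PTRF did not pass the test, SDPR had 0.234 and 0.0576 CPM in resistant cells against 38.9 and 31.9 CPM in sensitive cells, a log2 fold change of -7.89 ± 0.50. EHD2 (-1.45 ± 0.21) and PRKCDBP (-1.38 ± 0.30) were lower there too, and CAV2 was higher (0.80 ± 0.12). In PC3 resistant cells PRKCDBP was higher (4.26 ± 0.50), on 3 and 5 reads in the sensitive libraries, and PACSIN3 lower (-1.40 ± 0.14).

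Paralogs of KAT2A, RAB5C and ATP6V0A1 were present in PC3. KAT2B stood at 127% of DU145, RAB5A at 87.2%, RAB5B at 86.3%, ATP6V0A2 at 85.5% and TCIRG1, the a3 subunit of the proton pump, at 192%. RAB5B was lower in DU145 resistant cells (log2 fold change -0.72 ± 0.15), as was TCIRG1 (-0.92 ± 0.16). KAT2B was higher there by 1.06 ± 0.24, a call lost without DU145 sensitive replicate 2 (edgeR adjusted p = 0.0540). Over the 13 paralogs, 1 was higher and 4 lower in DU145 resistant cells, and 2 were higher and 5 lower in PC3 resistant cells.

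Of 19 further subunits of the proton pump, 3 were lower in DU145 resistant cells, and 4 were higher and 6 lower in PC3 resistant cells. Of 23 partners of KAT2A in SAGA and ATAC, 5 were higher and 1 lower in DU145 resistant cells, and 6 were lower in PC3 resistant cells, with TAF10 at -1.28 ± 0.16 in PC3. TAF9 (0.75 ± 0.16) and TADA2A (0.80 ± 0.18) were higher in DU145 resistant cells, calls that were lost without DU145 resistant replicate 1 for TAF9 (edgeR adjusted p = 0.0524) and without DU145 sensitive replicate 2 for TADA2A (0.0702).

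Of 8 genes of heparan sulfate degradation, the work of NAGLU, 1 was higher and 3 lower in DU145 resistant cells, and 3 were higher and 1 lower in PC3 resistant cells. The lysosomal enzymes HGSNAT (-1.47 ± 0.23), ARSG (-1.11 ± 0.24) and GUSB (-0.71 ± 0.14) were lower in DU145 resistant cells like NAGLU. GUSB had 156 and 150 CPM in PC3 resistant against 36.2 and 33.6 CPM in PC3 sensitive cells, a log2 fold change of 2.03 ± 0.15. Of 8 partners of PSMC3IP in recombination, 2 were higher in DU145 resistant cells, and 2 were higher and 2 lower in PC3 resistant cells, among them RAD51AP1 (0.92 ± 0.16) and RAD54L (-0.90 ± 0.16).

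The genes most like STAT3 over the 8 libraries were found by Pearson correlation on log2(CPM + 0.5) among 11263 genes off the window. CTSF, a lysosomal protease, had r = 0.9996, PLPP2, a lipid phosphatase, 0.9986, SLC47A1, an organic cation exporter, 0.9985, and DNAJA4, a cochaperone, 0.9982, and 1 further gene is not described here. All 4 were at 0.347 CPM or below in the PC3 libraries, and lower in DU145 resistant than in DU145 sensitive libraries without overlap. The genes were chosen for likeness to STAT3 in these same libraries, so this pattern follows from the choice and nothing is read from it. Of all tested genes, 61.3% had no overlap between the DU145 groups, in either direction. CTSF had 35.7 and 33.9 CPM in DU145 resistant cells against 64.9 and 66.5 CPM in DU145 sensitive cells. The 8 points share 2 cell lines, and the gap between the lines carries most of r.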

How the data were processed

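Bulk RNA-seq was analysed in 8 libraries, 2 per group, with groups taken from the sample labels. Values were raw gene counts that the authors deposited for each library, made with a SMART-seq mRNA kit. Their processing notes name Bowtie and hg38. Its version, the counting tool, its annotation and its use of strand are not given in the sources used. Gene positions came from GENCODE 44 for 56558 of 60554 genes. CPM were counts over the library total. Resistant against sensitive was tested with edgeR 4.0.16 in R 4.3.3 (filterByExpr by group, TMM factors, 1 mean per group over all 8 libraries, quasi-likelihood test, Benjamini-Hochberg, threshold 0.05), and a standard error is the log2 fold change, unsigned, over the square root of F. The fit was run on simulated data with planted changes larger than those given for the members, so nothing is read from it for the smaller changes. Intervals were exact Poisson intervals with 95% confidence on PC3 counts, a count of 0 was read as up to 3 counts, and reads carried no molecular identifiers, so both cover counting error only. Tables and plots used Python 3.11.15, pandas 2.3.3 and matplotlib 3.10.9. Alternatives were RLE factors, DESeq2 1.42.0, other filters, 1 line alone, a replicate block, other limits and each library left out. Members and lists were chosen with earlier results of these data known. Named genes were the members, their neighbours, up to 4 genes per list in DU145 and 3 in PC3 by adjusted p, paralogs, and the genes most like STAT3, and the text names fewer, since some are not reported here. With 2 libraries per group, precision rests on the spread shared by the 4 groups. The single cell data of the study were not used.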

Additional observations from a re-analysis of the deposited data

Results flagged for a closer look

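The change of resistant against sensitive cells differed between PC3 and DU145 for 31 of 47 genes compared, by the edgeR test of the PC3 difference minus the DU145 difference, where 34.3% of all tested genes passed. The 47 were the members and the genes whose change within a line is given above, and many of these were named for such a change. Values below are that difference of log2 fold changes. Among the members 4 passed, NAGLU at 1.25, ATP6V0A1 at -1.20, STAT3 at 0.82 and PTRF at -0.81, the last 3 computed after the values were seen and on few PC3 reads, which for ATP6V0A1 were 30 in resistant and 34 in sensitive cells.

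Those 3 did not hold with each library left out. STAT3 did not pass without DU145 sensitive replicate 2 (edgeR adjusted p = 0.0755), DU145 resistant replicate 2 (0.0552), PC3 sensitive replicate 1 (0.146) or PC3 resistant replicate 2 (0.121). ATP6V0A1 did not pass without PC3 sensitive replicate 2 (0.119) or PC3 resistant replicate 2 (0.0595). PTRF passed only without DU145 resistant replicate 2 (0.00632), and had up to 0.135 without any other library.

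Of the pathway genes, IL11 (-2.83), IL31RA (-2.29) and CLCF1 (-1.90) had less of a rise or more of a fall in PC3. JAK3 (2.22) had its fall in DU145, and STAT6 (-1.29) in PC3. Among inhibitors the values were 3.55 for PTPN6, 2.53 for CISH, -1.25 for SOCS6 and -1.08 for SOCS5. Among targets they were 1.65 for MYC, 1.26 for ICAM1, -1.83 for FOSL1 and -1.28 for IRF1. CEBPD had 1.29, which did not pass without DU145 resistant replicate 1 (adjusted p = 0.0629), PC3 sensitive replicate 1 (0.0808), PC3 sensitive replicate 2 (0.05003) or PC3 resistant replicate 1 (0.124) in edgeR.

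Of the caveola genes, SDPR had 7.81, PRKCDBP 5.65, CAV2 -0.97 and PACSIN3 -1.31. Of the enzymes of heparan sulfate degradation, GUSB had 2.74, HGSNAT 2.20 and ARSG 1.99, the same sign as NAGLU. Of the partners of KAT2A, TAF9 had -1.56, TAF10 -1.34 and TADA2A -1.29. RAD54L had -1.17. Of the neighbours, DNAJC7 had -1.58 and COASY 0.55, and COASY did not pass when any of 7 of the 8 libraries was left out (edgeR adjusted p from 0.0587 to 0.163).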

How the results depend on the processing

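With 2 libraries per group, counts of calls moved when 1 library was left out. Genes higher in DU145 resistant cells ranged from 1380 to 2467, and in PC3 resistant cells those higher from 2349 to 4020 and those lower from 1983 to 3578. Of the members, 1 to 3 were higher and 1 to 2 lower in DU145 resistant cells, with 1 and 1 without DU145 sensitive replicate 2 or DU145 resistant replicate 1. The count of members below 2% in PC3 was 7 with each library left out, with TMM sizes and with limits of 1% and 5%. All genes below 2% numbered 313 with a DU145 minimum of 1 CPM and 81 with 20 CPM, and runs numbered 7 at 1 CPM and 5 at a limit of 5%. In DU145 the uncalled RAB5C ranged from -0.35 to 0.19 on the log2 scale and PTRF from -0.076 to 0.42 with 1 library left out, changing sign when DU145 sensitive replicate 1 or DU145 resistant replicate 2 (RAB5C) or DU145 resistant replicate 1 (PTRF) was missing. PSMC3IP lost its call in a fit of DU145 alone (edgeR adjusted p = 0.0583), as did PTRF (0.0944) and NAGLU (0.0654) in PC3 alone, and NAGLU in PC3 without a filter on low counts (0.0652). The causes were not tested.

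The replicate numbers are only names in the labels. Same-numbered libraries deviated together with r = 0.323 in DU145 and 0.0861 in PC3. With the replicate number as a block, 3228 genes were higher and 3794 lower in DU145 resistant cells, and the counts of members stayed at 3 and 2. The difference between lines then passed for PSMC3IP at -0.79 (edgeR adjusted p = 0.0222), as it did with DESeq2 (0.0392).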
